A study of Mus musculus with 12 samples.

Results

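Blood vessels of the brain are wrapped by mural cells: pericytes on the capillaries, which share a basement membrane with the endothelium, and contractile vascular smooth muscle cells on arteries and arterioles. The 9 genes described here are widely used markers of these cells. Vtn, Rgs5, Pdgfrb, Abcc9 and Anpep mark pericytes, some of them smooth muscle as well, and Acta2, Myl9, Tagln and Myh11 encode parts of the contractile apparatus. The genes were listed by name and located by symbol in 3 deposited tables of frontal cortex RNA sequencing. All 9 were present and tested in every table, out of 15201 symbols tested in any of them. They form 10 gene models (transcript groups assembled by the authors), because Myl9 was assembled as 2 models.

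Endothelial cells release the growth factor PDGF-B, which binds the receptor encoded by Pdgfrb and keeps pericytes on the vessel wall. Smooth muscle contracts when myosin, built from a heavy chain (Myh11) and light chains including Myl9, pulls on actin filaments (Acta2). The contractile genes are textbook targets of serum response factor, which binds a DNA element called the CArG box together with the cofactor myocardin. Calcium entry through NMDA receptors on neurons is one of the signals by which neuronal activity widens nearby arterioles.

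The samples were 12 male F1 hybrids of C57Bl/6 and 129/SvlmJ mice, aged 14 weeks, with 4 animals in each of 3 groups. The groups are labelled GluN1Cre (Grin1 knockdown with Cre rescue, called rescue here), GluN1 (Grin1 knockdown) and WT (wild type). Grin1 encodes the obligatory subunit of the NMDA receptor. Every animal, wild type included, received tamoxifen, the ligand that switches on inducible forms of Cre, starting at 10 weeks, as a 6 mg gavage plus roughly 14 mg eaten with chow. The allele behind the knockdown and the promoter and cell types of the Cre line are not given in the sources used here. By the labels only the rescue group carried Cre, so effects of Cre and of restored Grin1 cannot be told apart.

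The deposited tables give 1 FPKM per group, that is fragments per kilobase of transcript scaled to library size, estimated by the authors over the 4 libraries of the group. Depth and the spread between animals are therefore unknown. Significance rests on the p and q that the authors' Cuffdiff test gave, and a model was called changed at p under 0.05 and q under 0.10, the threshold in the series' design text. The files' own significance column uses q under 0.05 instead, so a call here with q between 0.05 and 0.10 is not marked there. Each group enters 2 tables that were assembled and normalised separately, so each group has 2 deposited values per model. For the 10 models those 2 values differed by at most 2.33%. Grin1 itself stood at 41.0% of wild type in the knockdown and at 56.5% of wild type in the rescue. Its 2 deposited values lay further apart, at 56.7 and 65.7 FPKM in knockdown and 86.7 and 78.0 FPKM in rescue. Set directly against knockdown, the rescue had 132% of its level (q = 0.038 in the authors' deposited table). Markers of other tissue moved between the groups too. By that threshold 8 of 10 olfactory bulb models were higher and 5 of 9 striatal models lower in knockdown than in wild type. Over all tested models 2.52% were called in this comparison, and 1.66% were called higher. In rescue against knockdown 7 of 10 olfactory bulb models were lower. In rescue against wild type 6 of 9 olfactory bulb models were higher and 7 of 9 striatal models were lower. The shares of all tested models called in these comparisons were 0.689% and 0.841%. Among neuron markers, 2 of 10 models (Gad1 and Gad2) were higher in knockdown than in wild type, and none was called in the other comparisons. Of the astrocyte models 2 of 10 (Gfap and Aqp4) rose in knockdown against wild type and 2 of 11 (Gfap and 1 model of Gjb6) fell in rescue against knockdown. The folds of all 10 were above 0 in the first of these and those of all 11 below 0 in the second, as for the mural models. The shares over all tested models were 48.8% above 0 in the first and 52.8% below 0 in the second. Of the 5 blood models 1, a model of Hba-a1 and Hba-a2, was higher in knockdown than in wild type. In rescue 3 of the 5, all of haemoglobin genes, were higher than in knockdown, and likewise 3 against wild type. All 5 blood folds were above 0 in each comparison, as were 46.6% of those of all tested models in rescue against wild type. The part of these tissues and cells in the results below was not tested.

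Vtn and Rgs5 were the most abundant of the 9 genes and Myh11 the least (FPKM is scaled by transcript length, so genes can be set side by side). Vtn encodes vitronectin, a secreted adhesive protein of plasma and matrix that binds αv integrins, and had 28.3 and 28.7 FPKM in rescue cortex, 29.7 and 29.8 FPKM in knockdown cortex and 24.4 and 24.3 FPKM in wild-type cortex. Rgs5, which encodes a regulator that shortens G protein signalling, had 26.5 and 26.9 FPKM in rescue, 27.6 and 27.7 FPKM in knockdown and 23.9 and 23.6 FPKM in wild type. For both genes the rescue and knockdown values lie close together and the wild-type values lie below them. Pdgfrb followed at 4.59 and 4.63 FPKM in rescue, 4.85 and 4.86 FPKM in knockdown and 4.49 and 4.45 FPKM in wild type. The other pericyte genes were lower. Abcc9 encodes the sulphonylurea receptor subunit of an ATP-sensitive potassium channel, and had 1.61 and 1.63 FPKM in rescue, 1.69 and 1.70 FPKM in knockdown and 1.48 and 1.46 FPKM in wild type. Anpep encodes the membrane peptidase aminopeptidase N (CD13), and had 1.47 and 1.49 FPKM in rescue, 1.59 FPKM in knockdown in both tables and 1.29 and 1.28 FPKM in wild type. In all 5 pericyte genes the rescue lies between the other groups. With no values per animal, the order of neighbours such as Vtn and Rgs5 could not be tested.

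Contractile transcripts were scarce beside Vtn and Rgs5, but all except Myh11 stood above the pericyte genes Abcc9 and Anpep. Acta2, smooth muscle alpha-actin, had 2.36 and 2.33 FPKM in rescue, 3.003 and 3.01 FPKM in knockdown and 2.62 and 2.61 FPKM in wild type. The first model of Myl9 had 3.18 and 3.14 FPKM in rescue, 3.93 and 3.95 FPKM in knockdown and 3.48 FPKM in wild type in both tables, and the second model 3.62 and 3.63 FPKM in rescue, 4.18 and 4.16 FPKM in knockdown and 3.41 and 3.40 FPKM in wild type. For Acta2 and the first model of Myl9, the knockdown stands highest and the rescue lowest, below wild type. Myh11, the smooth muscle myosin heavy chain, showed the same order at 0.825 and 0.818 FPKM in rescue, 0.949 and 0.971 FPKM in knockdown and 0.846 and 0.857 FPKM in wild type. Tagln, which encodes the actin-binding protein transgelin, had 2.65 and 2.62 FPKM in rescue, 3.04 and 3.05 FPKM in knockdown and 2.46 and 2.45 FPKM in wild type. In all 10 models the knockdown had the highest deposited level. Wild type had the lowest level in 7 models (the 5 pericyte genes, Tagln and the second model of Myl9) and the rescue in 3 (Acta2, Myh11 and the first model of Myl9).

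**Figure D1:**
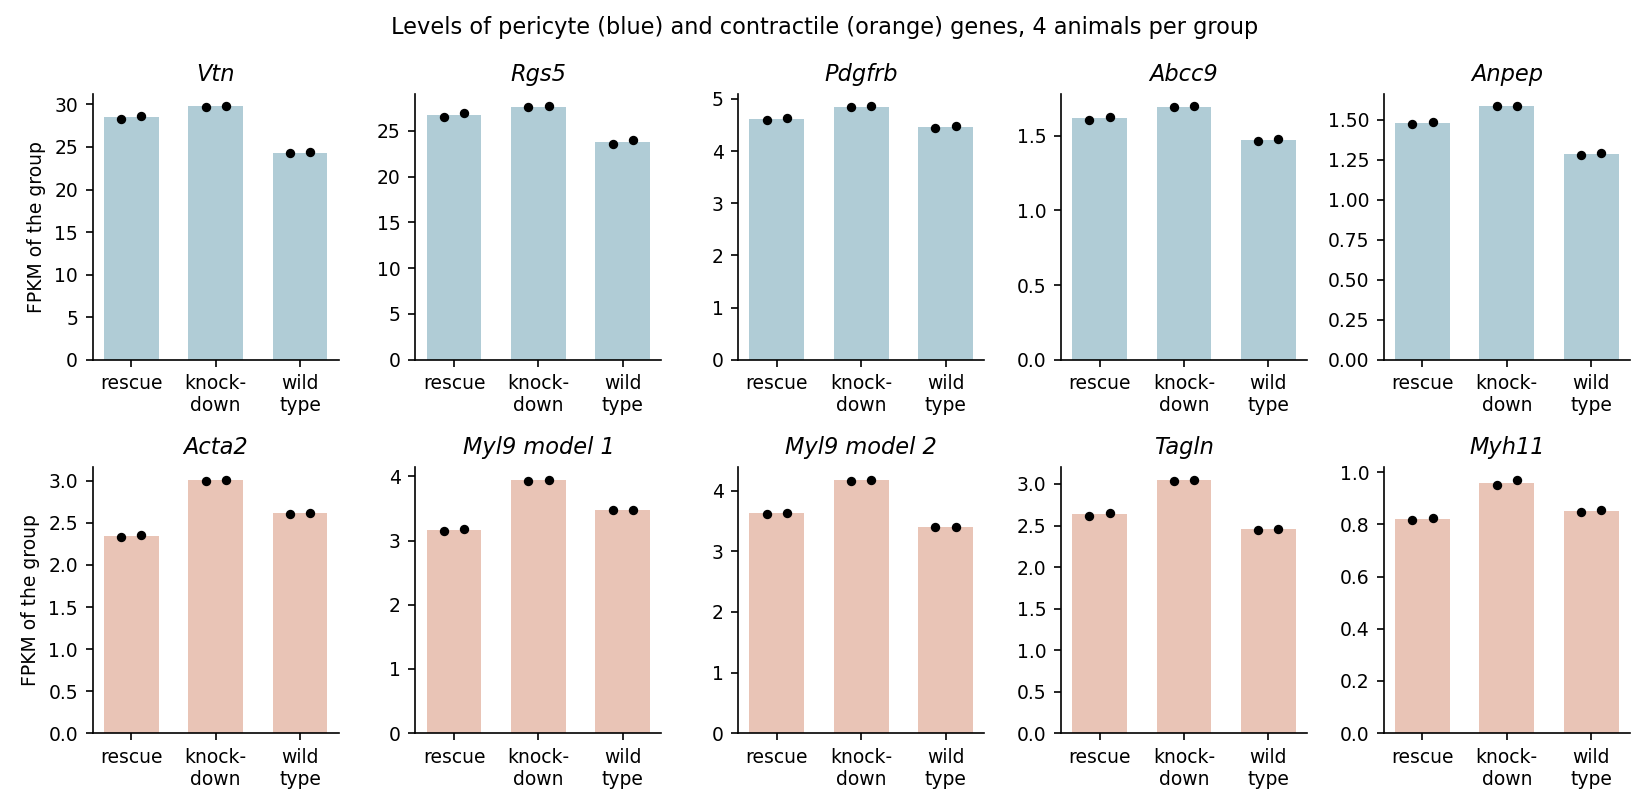
Deposited FPKM (y axis, from 0) of the 10 gene models in rescue, knockdown and wild-type cortex; the dots are the 2 values each group has in the 2 tables it enters, and the bar is their mean, with no error between animals available. The knockdown bar is the highest in every panel, and the rescue bar is below wild type for Acta2, Myh11 and the first model of Myl9.

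Some models are less certain than others. In GENCODE M21 (GRCm38) Tagln lies on the minus strand of chromosome 9 from 45929619 to 45936058, overlaps Pcsk7 and the antisense gene Gm48529, and 58.3% of the 50-base stretches of its transcripts also occur in transcripts of other genes on the same or opposite strand. Whether the libraries kept strand is not given in the sources used here. The authors' tables list Tagln at a shared locus with Bace1, Rnf214 and Pcsk7. Both models of Myl9 carry the same coordinates, on chromosome 2 from 156775463 to 156781660 (knockdown against wild type), so reads of 1 gene may be split between them. For Abcc9, which overlaps the antisense gene 5330439B14Rik, 1.95% of these stretches occurred in other genes, and the antisense model is listed at 0 in every table. The share was 0.326% for Acta2 and 0.340% for Myh11, whose sequences resemble other actins and myosins. For Vtn, Pdgfrb, Rgs5, Myl9 and Anpep no such stretch was shared.

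The first comparison, knockdown against wild type, asks which mural transcripts differ when Grin1 is low. Vtn rose: 29.7 FPKM in knockdown against 24.4 FPKM in wild type, 22.0% higher (log2 fold 0.29, p = 0.0007 and q = 0.0392 in the authors' deposited table). It was the 1 model of the 10 called, while 2.52% of all 18417 tested models were called in this table and 1.66% were called higher. The 95% interval of its log2 fold implied by the deposited p ran from 0.12 to 0.45. That implied by the deposited test statistic ran from -0.06 to 0.63, and with p taken from that statistic Vtn was not called. Vtn lies on the plus strand of chromosome 11 from 78499091 to 78502324 in GENCODE M21, with no overlapping gene. In tissue RNA, more mural cells and more RNA per cell cannot be told apart.

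The other 9 models were not called. Rgs5 was 15.2% higher in the knockdown (log2 fold 0.20, p = 0.0187, q = 0.372 in the authors' deposited table) and Anpep 22.6% higher (log2 fold 0.29, p = 0.042, q = 0.581 in the authors' deposited table). With Vtn these made 3 of 10 models at an unadjusted p under 0.05, against 7.91% of all tested models. The log2 fold of Abcc9 was 0.20 and that of Pdgfrb 0.11, with an implied interval for Pdgfrb from -0.07 to 0.30. Folds of the contractile models lay between 0.17 for Myh11 and 0.31 for Tagln, whose implied interval ran from -0.97 to 1.58. All 10 folds were above 0, as were 48.8% of those of all tested models, and the median over the 10 was 0.20. Among the 13920 tested models that averaged 1 FPKM or more, the median was -0.01, and 4.24% had a higher fold than Vtn.

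**Figure D2:**
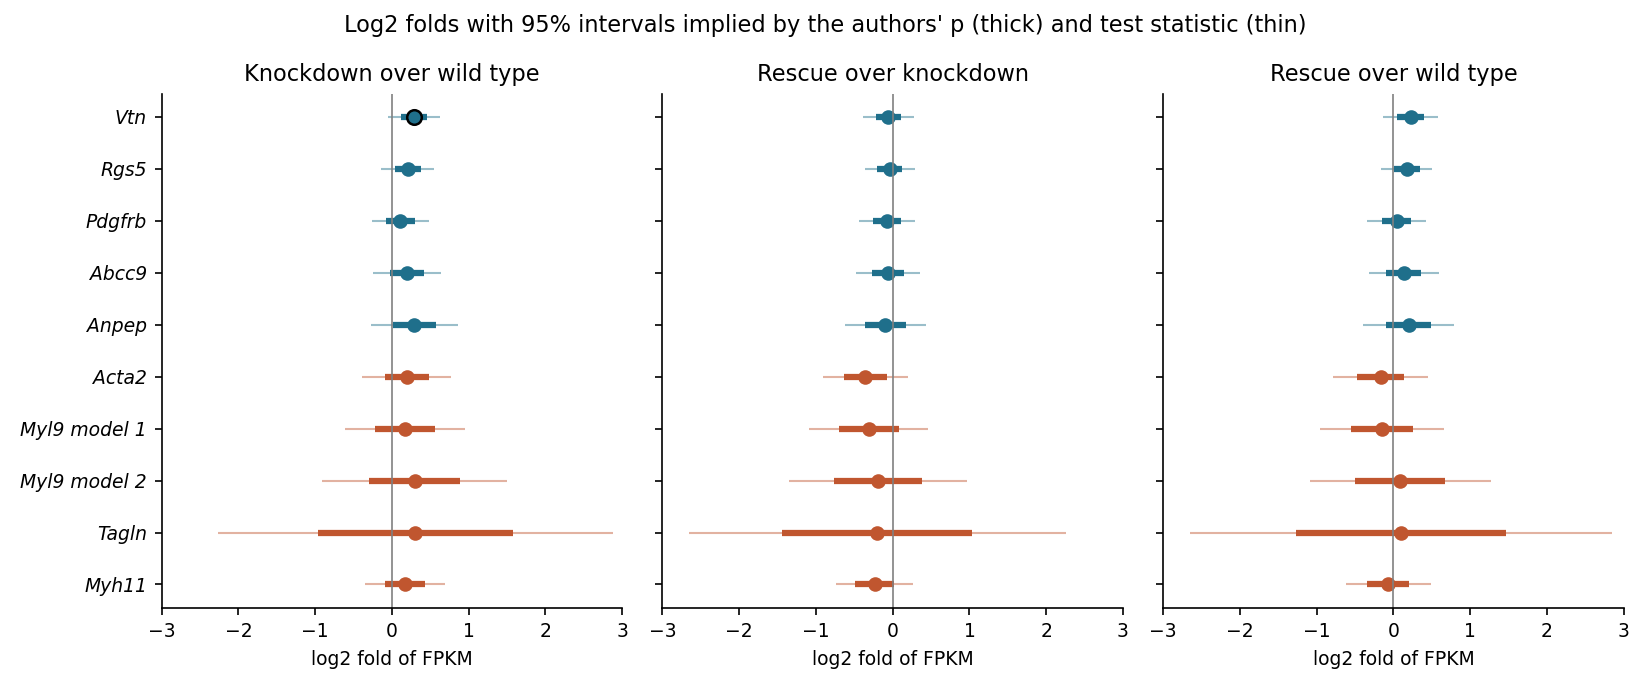
Log2 folds of FPKM (x axis) of the 10 models in each comparison, pericyte genes in blue and contractile genes in orange; thick lines are 95% intervals implied by the authors' p, thin lines those implied by their test statistic, and a black ring marks a called model. Vtn in knockdown over wild type is the only ringed point, and the interval of Tagln is the widest in every panel.

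The second comparison, rescue against knockdown, asks which mural transcripts move when Grin1 is partly restored in the adult. No model was called by Cuffdiff, against 0.689% of all 18430 tested models, and 1 of 10, Acta2, had an unadjusted p under 0.05, against 4.19% of all. Acta2 had 2.36 FPKM in rescue and 3.01 FPKM in knockdown, a difference of -21.8% (log2 fold -0.35, p = 0.012, q = 0.646 in the authors' deposited table). The implied interval ran from -0.63 to -0.08, and that from the test statistic from -0.91 to 0.20. Of the models averaging 1 FPKM or more, 1.73% had a lower fold.

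All 10 folds were below 0, as were 52.8% of those of all tested models. The size of the point values differed by role among these 10 models. The 5 contractile models had log2 folds from -0.35 to -0.19, with a median of -0.24, and the 5 pericyte models from -0.09 to -0.04, with a median of -0.06. These ranges of point values do not overlap, but implied intervals of models of the 2 roles do. In the further lists described below, the medians in this comparison were -0.04 for contractile and 0.01 for pericyte models. The first model of Myl9 had a log2 fold of -0.31, with an implied interval from -0.71 to 0.08, and Myh11 one of -0.24, from -0.49 to 0.02. For Vtn the fold was -0.06, with an implied interval from -0.22 to 0.11, and for Rgs5 -0.04, from -0.20 to 0.13. The 10 models are not replicates of a condition, and the difference between the 2 roles was not tested.

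**Figure D3:**
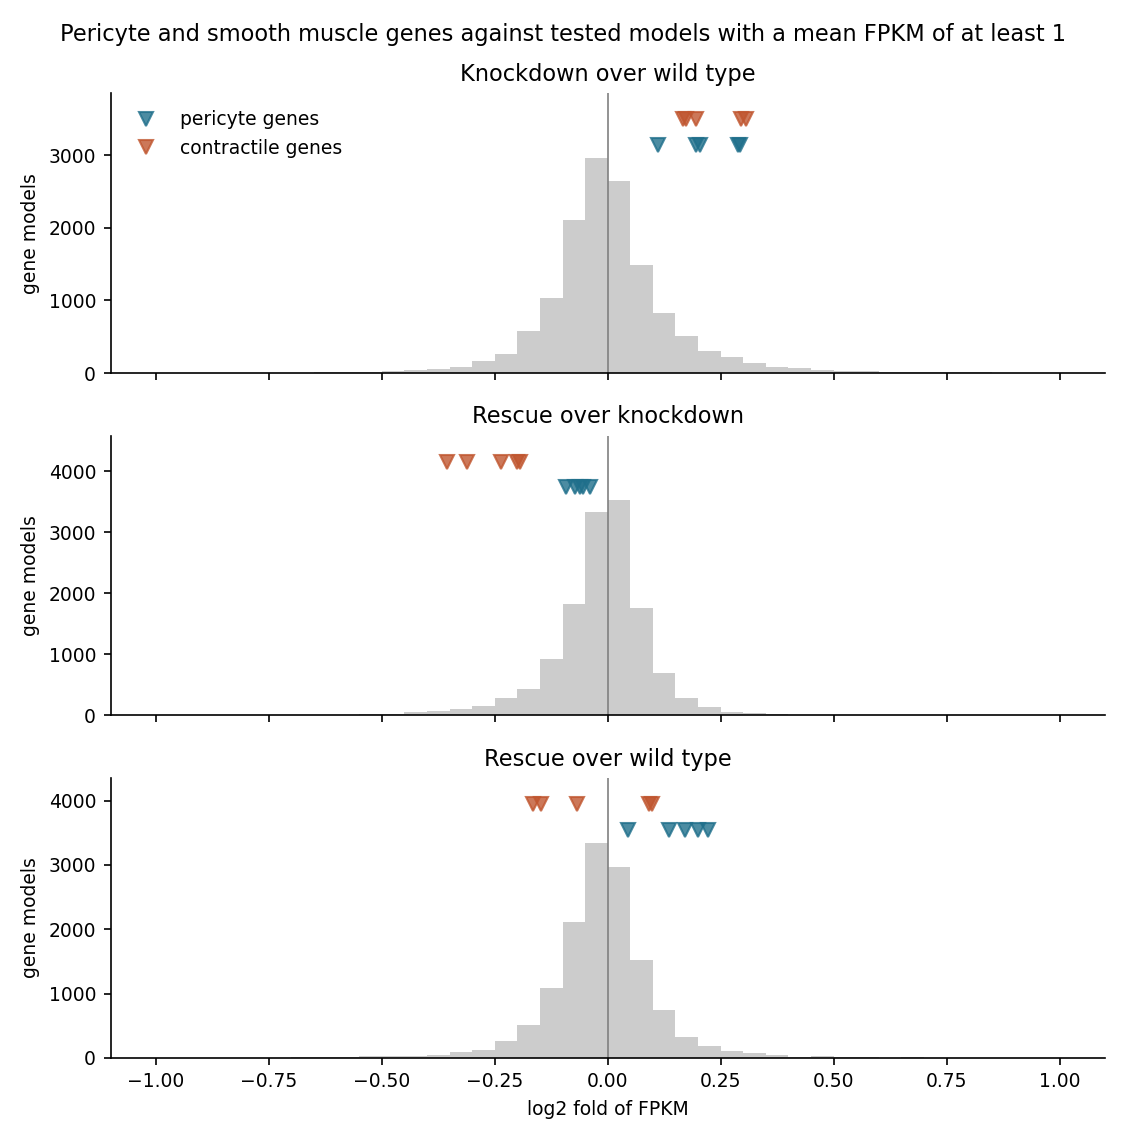
Number of tested gene models averaging 1 FPKM or more (y axis) by log2 fold of FPKM (x axis, in bins from -1 to 1) in each comparison; triangles mark the pericyte models in blue and the contractile models in orange, at an arbitrary height. Both colours lie right of 0 in knockdown over wild type, and in rescue over knockdown the contractile models, from -0.35 to -0.19, lie left of the pericyte models.

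Promoter sequence was not used to list the members. Windows of 250 bases before the RefSeq start (GRCm38.p6) were used for 6 of the 9 genes: Vtn, Rgs5, Acta2, Abcc9, Myl9 and Anpep. They were searched on both strands for the CArG box, whose core holds only A and T, and, in a search added after seeing the data, for a CArG-like form with 1 other base in that core; the element reads the same way on either strand. The windows of Acta2 and Myl9, the 2 contractile genes of the 4 for which one was found, are shown beside those of Vtn and Rgs5, the most abundant pericyte genes. Each runs 5′ to 3′ on the strand of the gene, with matches in capitals. They are chr19:34255374-34255623 (minus), chr2:156775214-156775463 (plus), chr11:78498870-78499119 (plus) and chr1:169655251-169655500 (plus).
Acta2: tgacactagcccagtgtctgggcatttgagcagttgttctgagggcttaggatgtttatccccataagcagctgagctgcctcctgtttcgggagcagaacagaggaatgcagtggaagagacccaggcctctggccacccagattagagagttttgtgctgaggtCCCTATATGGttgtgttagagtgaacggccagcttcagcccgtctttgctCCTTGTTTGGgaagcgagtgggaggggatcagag
Myl9: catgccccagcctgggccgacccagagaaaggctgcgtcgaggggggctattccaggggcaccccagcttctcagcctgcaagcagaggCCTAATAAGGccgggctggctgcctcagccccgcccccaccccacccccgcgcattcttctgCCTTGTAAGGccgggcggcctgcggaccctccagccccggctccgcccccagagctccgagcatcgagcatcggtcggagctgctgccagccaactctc
Vtn: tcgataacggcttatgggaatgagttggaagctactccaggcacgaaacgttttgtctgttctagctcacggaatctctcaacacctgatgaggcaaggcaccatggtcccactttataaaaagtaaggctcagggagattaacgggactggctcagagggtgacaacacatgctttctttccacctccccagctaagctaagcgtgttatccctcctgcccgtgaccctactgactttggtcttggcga
Rgs5: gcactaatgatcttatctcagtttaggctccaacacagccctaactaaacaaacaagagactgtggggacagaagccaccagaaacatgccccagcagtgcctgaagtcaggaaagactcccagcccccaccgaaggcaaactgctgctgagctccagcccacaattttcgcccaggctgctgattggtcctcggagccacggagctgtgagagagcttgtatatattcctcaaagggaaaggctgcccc

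Myl9 held a CArG box from -161 to -152, counted back from the start, and a CArG-like element from -99 to -90. Acta2 held no CArG box in the strict form, with a core of only A and T. It held CArG-like elements, with 1 other base in the core, from -84 to -75 and from -34 to -25. The windows of Vtn, Rgs5, Abcc9 and Anpep held no match. The pericyte gene Pdgfrb was left out of the search, and no window was found for Tagln or Myh11. Of all 32851 promoter windows, 1.47% held a CArG box, 8.59% held either form and 0.670% held at least 2 matches of either form. A match describes the sequence and does not show that a factor binds there.

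The third comparison, rescue against wild type, asks which differences are present after rescue. No model was called by Cuffdiff, against 0.841% of all 18429 tested models, and 2 of 10 had an unadjusted p under 0.05, against 4.32% of all. Those were Vtn, 16.7% higher in the rescue (log2 fold 0.22, p = 0.0124, q = 0.626 in the authors' deposited table), and Rgs5, 12.6% higher (log2 fold 0.17, p = 0.0461, q = 0.9999 in the authors' deposited table). The implied interval for Vtn ran from 0.05 to 0.40. Folds of the 5 pericyte models were all above 0, from 0.04 for Pdgfrb to 0.22, as were 46.6% of those of all tested models. Of the 5 contractile models 2 were above 0 and 3 below (53.4% of all were below), from -0.16 for Acta2 to 0.10 for Tagln. The implied interval of Acta2 ran from -0.47 to 0.14, so neither a lower level nor an equal one was shown. The 3 comparisons share groups, and no test of 1 comparison against another was available in the tables.

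Other genes of mural cells were examined as lists. Of 20 further pericyte genes, 21 models were tested in knockdown against wild type and none was called by Cuffdiff. An unadjusted p under 0.05 was reached by 3 of them. Over all tested models the shares at that p were 7.91% here, 4.19% in rescue against knockdown and 4.32% in rescue against wild type. Over the 17 models averaging 1 FPKM or more, the filter used for the median of every list below, their median log2 fold was 0.07, against -0.01 for all models. Cspg4, the NG2 proteoglycan gene that oligodendrocyte precursors also express, had 2.91 FPKM in knockdown and 2.73 FPKM in wild type, and Mcam, a cell adhesion gene of vessels, had 2.86 FPKM in knockdown and 3.21 FPKM in wild type. Kcnj8, the pore subunit that pairs with the product of Abcc9, had a log2 fold of 0.03, and the models of Notch3, a receptor of mural cells, -0.02 and 0.03. In rescue against knockdown none of 20 models was called by Cuffdiff, 0 at an unadjusted p under 0.05, with a median of 0.01. In rescue against wild type 1 of 20 rose, Rgs4, at 180 FPKM in rescue against 150 FPKM in wild type (log2 fold 0.26, with q = 0.0704 in the authors' deposited table). Of all models tested in that comparison, 0.841% were called. Rgs4 is also abundant in cortical neurons.

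Of 24 further genes of the contractile apparatus, 23 were found, and Cuffdiff called none of the 21, 22 and 22 models tested in knockdown against wild type, rescue against knockdown and rescue against wild type. In that order 3, 1 and 0 had an unadjusted p under 0.05, against 7.91%, 4.19% and 4.32% of all tested models. The medians were 0.05, -0.04 and -0.02. The model with an unadjusted p under 0.05 in both of the first 2 comparisons was Crip1, a LIM domain protein gene, at 11.7 FPKM in knockdown against 8.69 FPKM in wild type (log2 fold 0.43, with q = 0.46 in the authors' deposited table) and 8.37 FPKM in rescue against 11.7 FPKM in knockdown (log2 fold -0.48, with q = 0.514 in the authors' deposited table). Des, encoding the intermediate filament protein desmin, had 0.835 FPKM in knockdown against 0.581 FPKM in wild type (log2 fold 0.52, with q = 0.38 in the authors' deposited table). Synpo2, with the lowest q of the 3 in that comparison, had 0.993 FPKM in knockdown against 0.724 FPKM in wild type (log2 fold 0.46, with q = 0.115 in the authors' deposited table). Among the serum response factor and myocardin genes none of 9 tested models was called by Cuffdiff in any comparison, with 0 at an unadjusted p under 0.05 in each. Myocd, which encodes myocardin, lay below 0.1 FPKM in every group and was not tested.

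None of the 6 models of PDGF ligands and of Pdgfra was called by Cuffdiff in any comparison, with 1, 1 and 0 at an unadjusted p under 0.05. The shares of all tested models at that p were 7.91%, 4.19% and 4.32%. The more abundant model of Pdgfb, the ligand of Pdgfrb, had 9.28 FPKM in knockdown and 9.31 FPKM in wild type (log2 fold -0.00). None of 7 models of integrins and partners of vitronectin was called by Cuffdiff in any comparison, with 0, 1 and 0 at an unadjusted p under 0.05, and Itgav, the αv subunit, had a log2 fold of 0.10 in knockdown against wild type. Pdgfd, a second ligand of the receptor encoded by Pdgfrb, had 1.77 FPKM in knockdown and 1.39 FPKM in wild type, and 1.33 FPKM in rescue and 1.74 FPKM in knockdown. In the Notch list 2 of 12 models rose in knockdown against wild type, where 1.66% of all tested models were called higher, and the median of the list was 0.00, with 5 models above 0 and 5 below. Heyl, a Notch target transcription factor found in mural cells, had 1.32 FPKM in knockdown against 0.857 FPKM in wild type (log2 fold 0.62, with q = 0.00833 in the authors' deposited table). Hey2, a related factor of arteries, had 2.86 FPKM in knockdown against 1.84 FPKM in wild type in 1 of its 2 models (log2 fold 0.64, with q = 0.0142 in the authors' deposited table). In rescue against knockdown their log2 folds were -0.33 and -0.31 and neither was called. The more abundant Notch targets Hey1, Hes1 and Nrarp had log2 folds of -0.14, -0.19 and -0.08 in knockdown against wild type, none of them called. No model of the list was called by Cuffdiff in either rescue comparison, with 2 at an unadjusted p under 0.05 against knockdown and 1 against wild type.

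Among receptors and enzymes of vessel tone, Pde3a rose and Npr1 fell, each in 1 comparison. Pde3a, which encodes a phosphodiesterase that breaks down cyclic AMP in smooth muscle, had 0.610 FPKM in knockdown against 0.346 FPKM in wild type (log2 fold 0.82, with q = 0.00456 in the authors' deposited table), the 1 of 17 models called (2.52% of all models were called in that table). Npr1, a receptor for natriuretic peptides, had 1.74 FPKM in rescue against 2.52 FPKM in knockdown (log2 fold -0.54, with q = 0.0118 in the authors' deposited table), the 1 of 18 called (0.689% of all models were called in that table). Npr1 was assembled differently in the other tables, as 2 models at a longer locus: the more abundant one had 2.39 FPKM in knockdown and 0.912 FPKM in wild type (log2 fold 1.39, with q = 0.47 in the authors' deposited table), and 1.70 FPKM in rescue and 0.941 FPKM in wild type (log2 fold 0.85), neither called. In rescue against wild type none of 16 was called by Cuffdiff and 3 had an unadjusted p under 0.05, against 4.32% of all tested models.

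Of the lists for other cells of the vessel wall and its surroundings, the fibroblast and meningeal list held most of the calls. Of 15 fibroblast and meningeal models 5 rose in knockdown against wild type, 0 fell and 10 were not called, against 1.66% of all tested models called higher, and all 13 that averaged 1 FPKM or more had folds above 0, with a median of 0.36. Igfbp2, which encodes a binding protein of insulin-like growth factors, had 41.7 FPKM in knockdown against 32.1 FPKM in wild type (log2 fold 0.38, with q = 0.00456 in the authors' deposited table). Aldh1a2, a retinoic acid synthesis enzyme of the meninges, had 4.07 FPKM in knockdown against 2.85 FPKM in wild type, and Col1a1, a fibrillar collagen chain, had 2.38 FPKM in knockdown against 1.71 FPKM in wild type. The others that rose were Col3a1 (log2 fold 0.62) and the transporter gene Slc6a13 (log2 fold 0.37). The summed level of the list was 120 FPKM in knockdown against 97.6 FPKM in wild type, 111 FPKM in rescue against 121 FPKM in knockdown and 107 FPKM in rescue against 95.1 FPKM in wild type. Of 21 endothelial models 1 rose in knockdown against wild type, Ly6a, and 20 were not called. An unadjusted p under 0.05 was reached by 8 of the 21, against 7.91% of all tested models. Of the 19 averaging 1 FPKM or more, 17 had folds above 0, with a median of 0.16. The summed level of the 21 was 275 FPKM in knockdown against 241 FPKM in wild type. Cldn5, a tight junction gene, had 26.6 FPKM in knockdown and 22.8 FPKM in wild type (log2 fold 0.22, with q = 0.441 in the authors' deposited table). None of the 9 border macrophage models was called by Cuffdiff, with 5 at an unadjusted p under 0.05 and a summed level of 11.1 FPKM in knockdown against 9.16 FPKM in wild type. Those 5 included both models of Cd163, each below 1 FPKM, which went opposite ways (log2 folds 0.45 and -0.59). No marker of these 3 lists was listed at 0 in any group, and the part of these cells in the change of Vtn was not tested.

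**Figure D4:**
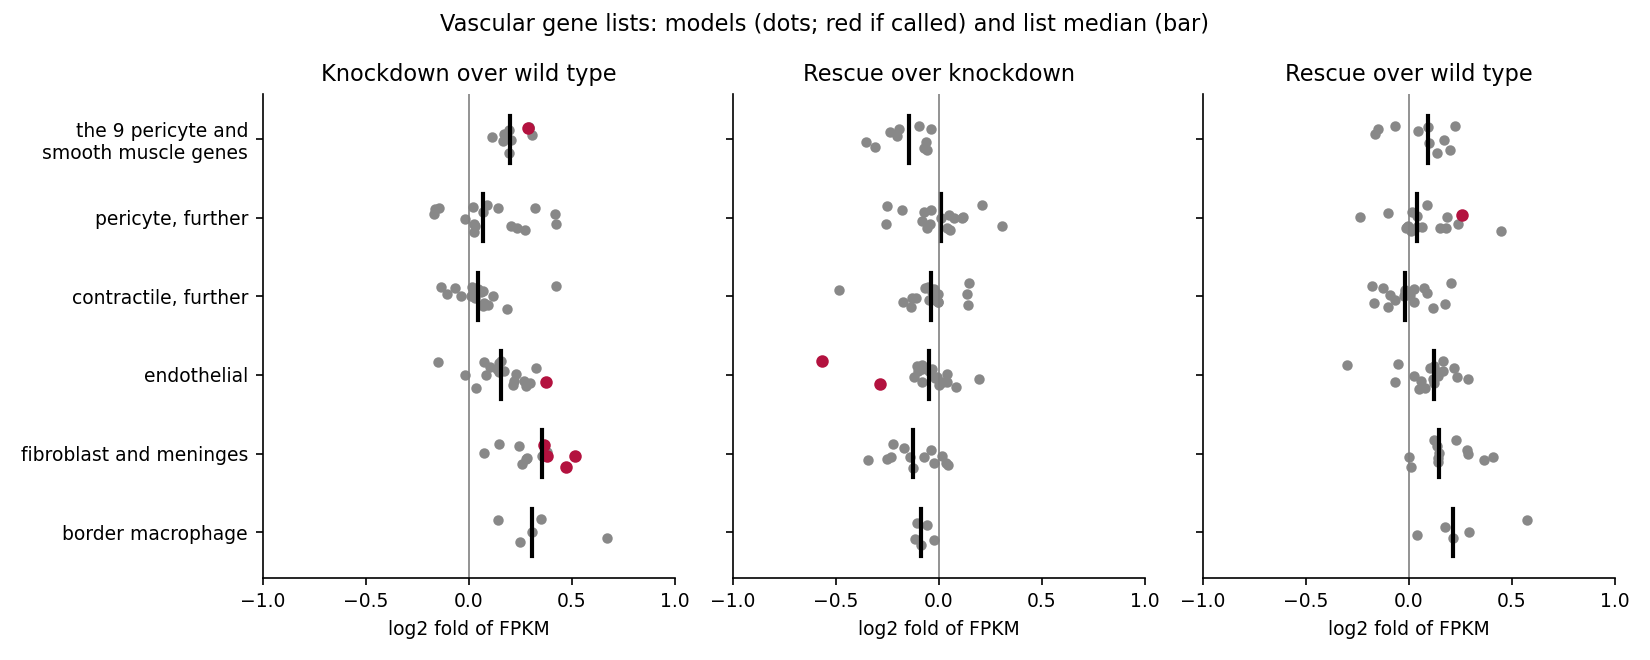
Log2 folds of FPKM (x axis) of the tested models of 6 gene lists (rows) in each comparison, with models of a mean FPKM under 1 left out except among the 9 genes; red dots were called at p under 0.05 and q under 0.10, and the black bar is the median of the list. In knockdown over wild type the medians of the 9 genes (0.20), endothelial (0.16) and fibroblast (0.36) lists lie right of those of the further pericyte (0.07) and contractile (0.05) lists.

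Over the 3 comparisons together, the log2 folds of Vtn were set beside those of 128 listed genes, none of them among the 9 genes. Nearest was the endothelial marker Pecam1 (Euclidean distance 0.03 on the log2 scale). Next came the macrophage and endothelial receptor gene Stab1 (0.05) and the pericyte transporter gene Slc6a20a (0.06). Pecam1 had log2 folds of 0.30 in knockdown over wild type, -0.08 in rescue over knockdown and 0.22 in rescue over wild type, where Vtn had 0.29, -0.06 and 0.22. Anpep, 1 of the 9 genes and so not compared, had 0.29, -0.09 and 0.20. The likeness rests on 3 groups, and neither the nearest genes nor Anpep were called in any table.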

How the data were processed

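The members and gene lists were chosen with earlier results of these data known. Polyadenylated frontal cortex RNA of 12 mice was sequenced. Per the submitters' processing notes the tools were FastQC 0.65, TopHat, TopHat2 2.1.0, Cufflinks 2.2.1.0 and Cuffdiff 2.2.1.3, and the builds were GRCm38 and mm10. The deposited files are 3 Cuffdiff tables made by the authors, each with 1 FPKM per group, a p-value and q-value, and a test statistic (a score), per the file headers. No values per animal were used, so no test across animals was made and p-values are the authors'.

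With Python 3.11.15, pandas, NumPy and SciPy, log2 folds were recomputed from the deposited FPKM with no pseudocount. Benjamini-Hochberg adjustment over the tested models gave the deposited q to within 5.14e-07. An implied standard error is the log2 fold divided by the normal deviate of its p, or by the deposited test statistic; the statistic was 0.497 of that deviate (median, knockdown against wild type). These intervals cover the error of the authors' model only. Adjustment and interval steps were tested on simulated data. All 9 genes are named. Of the vascular lists, genes called in any table are named, with up to 4 others by list order. Crip1, Des, Synpo2, Pdgfd, Itgav, Hey1, Hes1, Nrarp, Slco1c1 and Abcb1a were named after their values were seen. Annotation was GENCODE M21; promoters came from RefSeq. Alternatives were other thresholds, filters, pseudocounts, centring and the other tables' values. The CArG-like form was added after seeing the data.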

Additional observations from a re-analysis of the deposited data

How the results depend on the processing

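No paired analysis was possible because the tables hold 1 value per group, and for the same reason no animal could be left out. At an unadjusted p under 0.05, 3 of the 10 models passed in knockdown against wild type, 1 in rescue against knockdown and 2 in rescue against wild type, where the authors' threshold called 1, 0 and 0. When p was derived from the test statistic instead, 0 models passed in each comparison, and the calls over all models numbered 41, 15 and 18, where the authors' p gave 464, 127 and 155. The statistic is smaller than the deviate matching the authors' p (median ratio 0.497), so fewer calls follow by construction. At q under 0.05, or adjusted over models averaging 1 FPKM or more, Vtn was still the 1 call in knockdown against wild type and no other member was called. None of the 30 member folds changed sign with a pseudocount of 0.1 or 1, after centring on the median of all models or when derived from the other 2 tables, and the largest move was 0.12, with the pseudocount of 1. The members' median fold ran from 0.16 to 0.21 in knockdown against wild type, from -0.14 to -0.09 in rescue against knockdown (-0.09 with a pseudocount of 1 and over single-symbol models averaging 1 FPKM or more) and from 0.07 to 0.11 in rescue against wild type. With CArG-like elements counted, 2 members held a promoter match, where the CArG box alone gave 1. Depth per animal is unknown. In knockdown against wild type the error implied by the authors' p was smallest for the most abundant genes. On the log2 scale it was 0.085 for Vtn, 0.087 for Rgs5 and 0.095 for Pdgfrb. Among the scarcer models it did not follow FPKM: it was 0.13 for Myh11, below 1 FPKM, and 0.65 for Tagln.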

Other observations

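In rescue against knockdown 2 of 21 endothelial models were called, both lower, against 0.689% of all tested models. Mfsd2a, which encodes a lipid transporter, fell to 12.7 FPKM in rescue against 18.9 FPKM in knockdown (log2 fold -0.57, with q = 0.0118 in the authors' deposited table). Slc2a1, which encodes the glucose transporter GLUT1, fell to 39.5 FPKM in rescue against 48.2 FPKM in knockdown (log2 fold -0.29, with q = 0.0831 in the authors' deposited table). The endothelial transporter genes Slco1c1 and Abcb1a were not called, with log2 folds of -0.07 and -0.08. In rescue against wild type neither Mfsd2a nor Slc2a1 was called, with log2 folds of -0.30 and -0.07. Nor was either called in knockdown against wild type, with log2 folds of 0.27 for Mfsd2a and 0.23 for Slc2a1 (q = 0.130 and 0.141 in the authors' deposited table).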
